A study of Homo sapiens with 3 samples.

Results

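The transcriptomes of LvM3b cells overexpressing miR-483 were set directly against those of LvM3b cells overexpressing miR-551a, with the control array of the same series left out. LvM3b is an established human colon adenocarcinoma line, and each group was a single Illumina bead array hybridised with biotin-labelled cRNA from total RNA. The groups were miR-483 cells (1 array) and miR-551a cells (1 array). The sample label says miR-483, while the series text says miR-483-5p, and how either microRNA was overexpressed is not given in the sources used here. Both cultures were grown in DMEM with serum and harvested at about 70% confluency, and both carry the description replicate 1. A probe was compared if it had a gene symbol and a detection score above 0.99 in either array, which left 13749 of 48803 probes. Of these, 12569 were detected in both arrays, 327 in the miR-483 array only and 853 in the miR-551a array only, and together they stood for 10771 of the 24989 genes with a symbol on the array. A control array exists but was not used, so a difference does not say which of the overexpressing cultures departs from control cells. With 1 array per group no test between the groups was possible, every difference below is between single arrays without a replicate check, and this number of arrays limits the precision. In such bulk samples fewer cells expressing a gene and less RNA of it per cell cannot be told apart.

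MicroRNAs are short RNAs that guide Argonaute proteins to messenger RNAs through base pairing of their seed, the bases near the 5′ end, and usually lower the stability or translation of those messengers. miR-483 lies within the gene of the growth factor IGF2, and both microRNAs have been studied as suppressors of metastatic colonisation by colon cancer cells. The overexpressed mature miR-551a is shown with its seed (bases 2 to 8 from the 5′ end) in capitals, as the RefSeq table places it on the minus strand at chr1:3560710-3560730 of GRCh38.p14, because it is the agent that defines the miR-551a group.
hsa-miR-551a: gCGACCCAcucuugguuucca
No probe carried the symbol of either microRNA or of MEGF6, the host gene of miR-551a, and IGF2 was not detected in either array, and the overexpression itself was therefore not measured.

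The arrays were alike in brightness. Over all probes the miR-483 array had a median intensity of 88.0 with 13291 probes detected, and the miR-551a array a median of 87.7 with 13925 detected. Of 12 colon epithelial markers 11 were detected in both arrays, with KRT20 undetected, and their summed intensity was 45024.4 in the miR-483 array and 47717.3 in the miR-551a array. Of 8 endothelial markers and 4 erythroid markers with a probe, 0 were detected in either array. Leukocyte markers were limited to CD68, LYZ and NKG7, without PTPRC, and summed to 2003.9 in miR-483 and 2003.8 in miR-551a cells. Hepatocyte markers were limited to SERPINA1 and FGA, without ALB (sums of 483.9 in miR-483 and 382.9 in miR-551a cells). Of 12 fibroblast markers 4 were detected in the miR-483 array and 2 in the miR-551a array, without COL1A1 (sums of 541.9 in miR-483 and 355.7 in miR-551a cells). Each sum takes the probes detected in its own array, so the fibroblast sums cover different genes and cannot be compared. Over the 2 fibroblast markers detected in both arrays the median log2 difference, miR-483 minus miR-551a, was -0.30.

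The 2 profiles differed little. Among the 13749 probes, 6 (0.0436%) passed 2-fold on the higher side, with more signal in miR-483 than in miR-551a cells, and 15 (0.109%) on the lower side. At 1.5-fold the counts were 160 (1.16%) higher and 168 (1.22%) lower. In the brighter part of the array, 6874 probes above the median level, 0 (0%) passed 2-fold upward and 7 (0.102%) downward, and 20 (0.291%) passed 1.5-fold upward and 38 (0.553%) downward. After averaging the probes of a gene, 109 genes (1.01%) passed 1.5-fold upward and 108 (1%) downward, and the median difference of all genes was 0.00 on the log2 scale, with 49.6% of genes higher and 48.1% lower. The spread of the differences depended on brightness: over probes detected in both arrays, their SD across probes was 0.298 in the dimmest of 4 equal brightness classes and 0.182 in the brightest, on the log2 scale. Higher calls made up 48.8% of the 1.5-fold calls, against 14.9% with median scaling and no background correction, where the median of all genes lay at -0.04. Without background correction 37.5% of the 1.5-fold calls were higher.

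**Figure D1:**
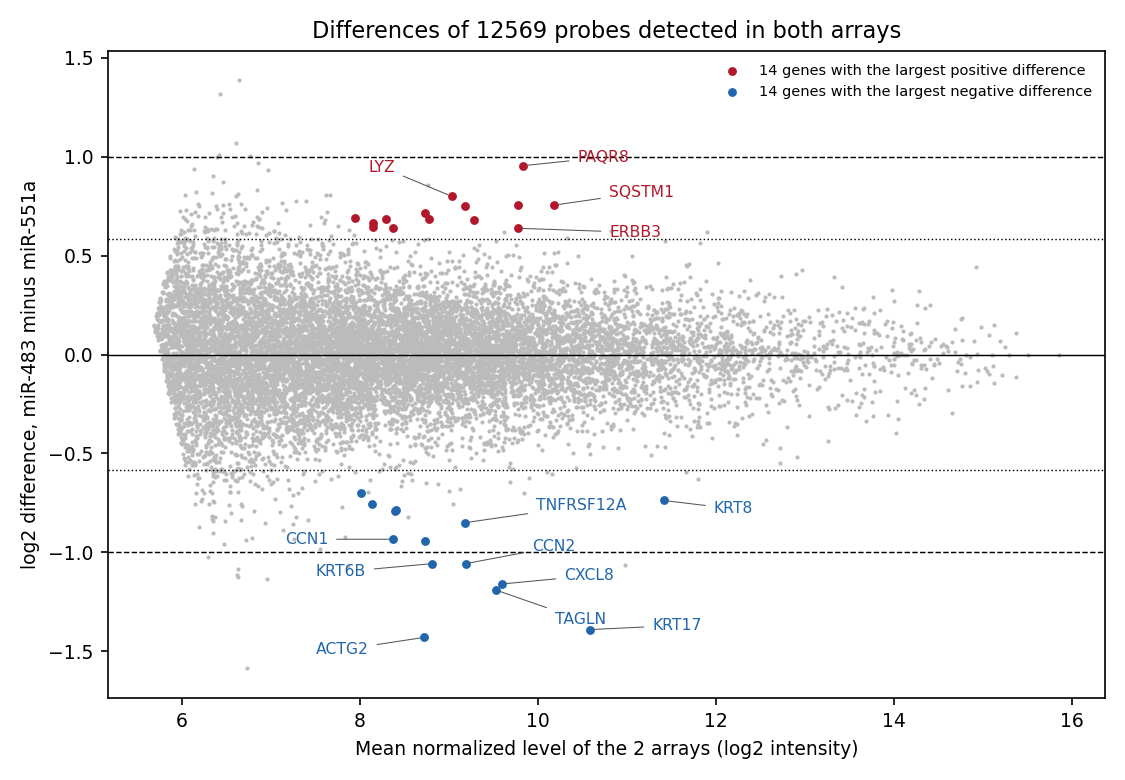
Each point is 1 probe detected in both arrays, with the mean normalized level of the arrays on the x axis (log2 intensity) and the log2 difference, miR-483 minus miR-551a, on the y axis (dashed lines at 2-fold, dotted lines at 1.5-fold). Coloured points mark the 14 genes with the largest positive and the 14 with the largest negative difference among brighter probes; the cloud narrows from an SD of 0.298 in the dimmest brightness class to 0.182 in the brightest, and the leading negative points lie farther from 0 than the leading positive ones.

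Keratins of basal and wounded epithelium were lower in miR-483 than in miR-551a cells. These type I and type II intermediate filament proteins pair into the filaments of stratified epithelia and are switched on in injured or hyperproliferative skin. KRT17, the type I keratin of regenerating epidermis, had an intensity of 982.5 in miR-483 cells against 2621.7 in miR-551a cells, a log2 difference of -1.39 or 2.62-fold lower. KRT6B, a type II partner keratin, had 367.5 in miR-483 and 733.3 in miR-551a cells (2.08-fold lower), and KRT16, the wound keratin that pairs with the KRT6 proteins, had 124.6 in miR-483 and 250.3 in miR-551a cells (-1.59 on the log2 scale). KRT80, a keratin of differentiating epithelium, had 221.6 in miR-483 and 409.7 in miR-551a cells (2.10-fold lower). KRT6A was detected in the miR-551a array only, at an intensity of 158.2 against 86.5 in the miR-483 array, which puts it at least 1.72-fold lower in miR-483 cells.

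Each bound of this kind sets the level of the detecting array against the lowest detected level of the other array, after background correction. The array that detected the probe thus sets the direction. Such a bound is a minimum on that scale only, and the ratio of the deposited intensities can be smaller. Of the 12 keratins listed, 7 were compared and 4 of these were detected in both arrays. Those 4 were KRT16, KRT17, KRT80 and KRT6B, each past 1.5-fold on the lower side, where 1% of all genes lay. This list, like the others below, was chosen with earlier results of these data known, so its share describes the chosen genes only. The median over all 7 was -1.06, against 0.00 for all genes, but 3 of the 7 had a direction set by the detection filter. Besides KRT6A these were KRT13 and KRT7, with bounds of -0.09 and -0.01, and KRT5, KRT6C, KRT14, KRT15 and KRT4 were detected in neither array. The differences of the dim members were smaller without background correction, at -0.98 for KRT16 and -0.41 for KRT6A, and that of KRT17 was -1.33. Close keratin paralogs share long stretches of sequence, and cross-hybridisation between them was not tested.

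Simple epithelial keratins, the main filaments of colon epithelium, differed less. KRT8 had an intensity of 2117.9 in miR-483 and 3667.4 in miR-551a cells, 1.67-fold lower, and KRT19 had 2532.8 in miR-483 and 3373.9 in miR-551a cells, a log2 difference of -0.34. The 2 probes of KRT18, the partner of KRT8, differed by -0.31 and 0.16. Desmosome, hemidesmosome and cornified envelope genes had no common direction, with 7 of 18 compared genes higher, 9 lower and a median of -0.01. The 2 members past 1.5-fold were both lower, where 1% of all genes lay. EMP1, a small epithelial membrane protein, had 362.2 in miR-483 and 666.4 in miR-551a cells (1.92-fold lower). TRIM29, a tripartite motif protein of basal epithelium, had 325.3 at one probe and 191.4 at another in miR-483 cells, against 468.7 and 274.4 in miR-551a cells, log2 differences of -0.57 and -0.67. SFN, the epithelial 14-3-3 protein sigma, differed by -0.39, and PKP3, a desmosomal plaque protein, by 0.36.

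Contractile and cytoskeletal genes of the serum response factor type were also mostly lower. SRF, with its actin-sensing coactivators of the MRTF family, binds CArG boxes in the promoters of smooth muscle actins and actin-binding proteins. ACTG2, the enteric smooth muscle gamma actin, had the largest negative difference among brighter probes, with an intensity of 315.0 in miR-483 against 777.3 in miR-551a cells, a log2 difference of -1.43 or 2.69-fold lower. TAGLN, the actin-binding protein transgelin, had 542.0 in miR-483 and 1207.1 in miR-551a cells (2.28-fold lower), and a dimmer TAGLN probe, detected in the miR-551a array only, was at least 1.46-fold lower. MYL9, a regulatory myosin light chain, had 146.5 in miR-483 and 251.0 in miR-551a cells (2.20-fold lower, and -0.75 on the log2 scale without background correction).

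CCN2 (listed as CTGF), a matricellular protein and well-known YAP and SRF target, had 458.9 and 339.3 at its 2 probes in miR-483 cells, against 928.9 and 571.2 in miR-551a cells (2.08-fold and 1.77-fold lower). CCN1 (listed as CYR61), its close relative, had 298.6 in miR-483 and 535.6 in miR-551a cells (1.91-fold lower). CCN2 was therefore well below its miR-551a level at both probes, and CCN1 at the only probe compared. Of 17 genes of this list, all detected in both arrays, 4 were higher and 13 lower. Downward 5 passed 1.5-fold and upward 0, against 1% and 1.01% of all genes. The list was chosen with earlier results of these data known, so this share describes the chosen genes only. The median was -0.35, and -0.21 over 24 genes without the detection filter. By probe, 23 of 29 were lower, and 5 of 8 genes with several probes had every probe lower. The LIM domain protein CSRP1 had 790.1 in miR-483 and 1105.0 in miR-551a cells (-0.43), and the focal adhesion protein ZYX, the filamin FLNC and the caldesmon CALD1 differed by -0.45, -0.36 and -0.35. The higher members were TPM4 (160.3 in miR-483 and 132.3 in miR-551a cells, 0.54), ACTA2 (0.24), CNN2 (0.14) and TPM1 (0.05), so the smooth muscle actins ACTG2 and ACTA2 did not share a direction. SRF itself had 528.7 in miR-483 and 526.7 in miR-551a cells, a log2 difference of 0.09.

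The stretch of the ACTG2 promoter that holds its CArG boxes is shown because ACTG2 had the largest negative difference among brighter probes. It lies at chr2:73892883-73892959 on the plus strand of GRCh38.p14 in the RefSeq table, with the 2 CArG boxes in capitals and 15 bases on either side of them. The boxes start 110 bases and end 63 bases before the start site.
ACTG2 promoter: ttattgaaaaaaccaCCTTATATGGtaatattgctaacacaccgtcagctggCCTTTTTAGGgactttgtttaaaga
A CArG box (CC, then 6 bases of A or T, then GG, on either strand) was present in 454 of 35116 promoter windows of the same length, 1.29%, each running 250 bases before to 50 after a start site. Of the 17 listed genes compared, 14 had a window in the table and 4 held a CArG box, namely ACTG2, ACTN1, CNN2 and TPM4. The last pair were higher in miR-483 cells, so the genes found with the motif lay on both sides of 0. TAGLN, CCN1 and MYL9, all past 1.5-fold on the lower side, had no window, so their promoters were not searched.

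Chemokines and other NF-kB targets were mostly lower. NF-kB transcription factors drive inflammatory genes, among them the CXC chemokines that attract neutrophils. CXCL8 (listed as IL8), the chief neutrophil chemokine, had 566.4 and 1422.6 at its 2 probes in miR-483 cells, against 1245.6 and 3085.3 in miR-551a cells, 2.23-fold and 2.09-fold lower. CXCL2, a related chemokine, had 231.9 in miR-483 and 360.8 in miR-551a cells (1.70-fold lower). CXCL1 was detected in the miR-551a array only, at 163.4 against 114.3 in the miR-483 array, and was at least 1.81-fold lower. CXCL8 and CXCL2 thus lay on the same side where both arrays detected them, and CXCL8 did so at both probes by similar folds. Of 11 genes of the list detected in both arrays, 2 were higher and 9 lower, and 2 of them passed 1.5-fold downward, as did 1% of all genes. This list too was chosen with earlier results of these data known. The median was -0.19, and -0.08 over the 6 genes with a brighter probe. The early response gene IER3 had 578.9 in miR-483 and 838.9 in miR-551a cells (-0.50). The chemokine CCL20 (161.7 in miR-483 and 168.6 in miR-551a cells, -0.05) and the NF-kB inhibitor NFKBIA (0.07) lay close to 0.

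The promoters of the neighbouring genes CXCL1 and CXCL2 hold the same NF-kB motif in nearly the same surroundings. These stretches are shown because CXCL2 was lower and CXCL1 had a bound on that side. The direction of the CXCL1 bound was set by the array that detected it. In the RefSeq table they lie at chr4:73869299-73869339 (plus strand) and chr4:74099248-74099288 (minus strand) of GRCh38.p14, with the motif in capitals.
CXCL1 promoter: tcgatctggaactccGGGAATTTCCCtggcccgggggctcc
CXCL2 promoter: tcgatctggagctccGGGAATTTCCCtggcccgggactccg
The capitals start 79 and 78 bases before the start sites of CXCL1 and CXCL2, and each stretch holds 2 overlapping matches. The NF-kB motif was common, with a match in 3956 of 35116 windows (11.3%), and 9 of the 11 listed genes with a window held it. These 9 included NFKBIA and CCL20, which differed little between the arrays. The pattern searched was GGG, then A or G, any 2 bases, C or T at 2 bases, then CC, on either strand. The CXCL8 window held no match to it. Looser forms of the motif were not searched, so this does not mean that CXCL8 lacks an NF-kB site.

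TNFRSF12A, the receptor for the cytokine TWEAK, had 485.2 in miR-483 and 867.8 in miR-551a cells (1.80-fold lower). CAV2, a caveolar coat protein, had 275.9 and 293.3 at its 2 probes in miR-483 cells, against 437.2 and 388.5 in miR-551a cells, log2 differences of -0.76 and -0.43. SRSF10 (listed as FUSIP1), a splicing factor, had 262.9 in miR-483 and 401.1 in miR-551a cells (1.62-fold lower), with -0.45 at its other probe. Both probes of CAV2 and of SRSF10 lay on the lower side, and TNFRSF12A was compared at a single probe.

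DKK1, a secreted WNT antagonist, had 195.5 in miR-483 and 333.2 in miR-551a cells (1.98-fold lower). SLC1A5, the main glutamine importer, had 493.9 in miR-483 and 791.4 in miR-551a cells (1.60-fold lower), and ANXA1, a calcium-dependent phospholipid-binding protein, had 2840.6 in miR-483 and 4587.3 in miR-551a cells (1.55-fold lower). S100A10, the partner of annexin A2, had 5639.6 and 3349.6 at its 2 probes in miR-483 cells, against 8126.7 and 4458.0 in miR-551a cells (-0.47 and -0.35). The S100 and annexin list as a whole had 8 of 17 genes higher, 8 lower and a median of 0.00, so ANXA1 and S100A10 stood at one end of an even spread.

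Feedback genes of ERK signalling were mixed, with 5 of 15 higher, 10 lower and a median of -0.06. DUSP6, the ERK phosphatase, had 337.9 in miR-483 and 518.6 in miR-551a cells at one probe (1.59-fold lower) and differed by -0.07 at a dimmer one, so its probes did not match in size. The receptor EPHA2 had 139.2 in miR-483 and 183.7 in miR-551a cells (-0.62), and the transcription factor ETV5 differed by -0.44. The HSP90 cochaperone CHORDC1 had 699.2 in miR-483 and 1116.2 in miR-551a cells (1.57-fold lower), within a chaperone list of 11 higher, 18 lower and a median of -0.04. HSPA5, the chaperone of the endoplasmic reticulum, had 337.0 in miR-483 and 486.2 in miR-551a cells (-0.57). Among the stress response genes of its list, 5 of 24 were higher and 19 lower, with a median of -0.08.

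Provisional symbols aside, the 8 largest bounds on the lower side included CXCL1 and KRT6A. ZWINT, a kinetochore protein, was at least 1.76-fold lower at a dim probe, and its brighter probes, with 504.7 and 1165.3 in miR-483 cells against 646.8 and 1793.6 in miR-551a cells, differed by -0.32 and -0.57. The other bounds were GOLGA8A (at least 1.92-fold lower), APOLD1 (1.74), EAPP (listed as C14ORF11, 1.70), the DNA repair protein RAD50 (1.69) and LARGE2 (listed as GYLTL1B, 1.65). Deposited intensities gave smaller ratios, miR-551a over miR-483, of 1.441 for GOLGA8A, 1.431 for APOLD1, 1.335 for EAPP, 1.342 for RAD50 and 1.356 for LARGE2. Their detection scores in the miR-483 array lay just under the 0.99 cut, at 0.9881 for APOLD1 and 0.9895 for the others.

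Mitotic genes were lower by small amounts that shared a direction. The list holds kinases, kinetochore proteins and cyclins that peak as cells divide. Of 49 genes compared, 3 were higher and 46 lower, with a median of -0.17 against 0.00 for all genes. In either direction 0 of the gene means passed 1.5-fold, against 1.01% of all genes upward and 1% downward. By probe, 64 of 74 were lower. Among genes with several probes, 14 of 19 had every probe lower and 1 every probe higher. Of the brighter probes 55 of 63 were lower.

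ECT2, an exchange factor for cytokinesis, had 5150.0 in miR-483 and 7228.9 in miR-551a cells (-0.43). The mitotic cyclin CCNB1 had 702.8 in miR-483 and 903.8 in miR-551a cells (-0.31), and the mitotic kinase PLK1 had 499.0 in miR-483 and 625.6 in miR-551a cells (-0.29). The anaphase activator CDC20 had 2545.6 in miR-483 and 3189.2 in miR-551a cells (-0.24), and the topoisomerase TOP2A 1393.5 in miR-483 and 1720.1 in miR-551a cells (-0.22). The proliferation antigen MKI67 had 141.4 in miR-483 and 148.9 in miR-551a cells (-0.08). The higher members were CENPA and BUB1, each at 0.06, and CDC25B at 0.02. Single probes reached larger values at the kinetochore protein NUF2, with 313.6 in miR-483 and 518.7 in miR-551a cells (1.73-fold lower, and -0.31 at another probe, listed as CDCA1), and at the centromere protein CENPM, with 315.0 in miR-483 and 518.9 in miR-551a cells (1.73-fold lower, and -0.10 and -0.46 at its other probes). Over all probes detected in both arrays the median absolute difference was 0.108 in the brightest class and 0.128 in the next.

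**Figure D2:**
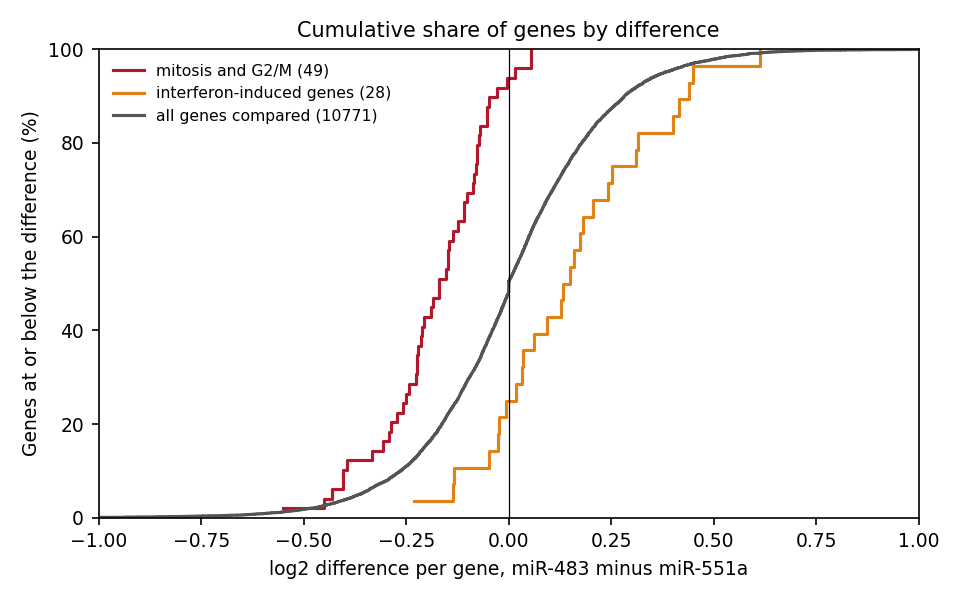
Cumulative share of genes (y axis, percent) at or below each log2 difference, miR-483 minus miR-551a (x axis), for 49 mitosis and G2/M genes, 28 interferon-induced genes and all 10771 genes compared. The mitosis curve lies left of the curve of all genes over most of its range and ends at 0.06, and the interferon curve lies right of it over most of its range.

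Genes of DNA replication, ribosome production and amino acid supply leaned the same way. Of 38 genes of the G1/S transition and DNA replication, 12 were higher and 26 lower, with a median of -0.11. MCM10, a replication initiation factor, had 745.1 and 173.8 at its 2 probes in miR-483 cells, against 1033.1 and 225.3 in miR-551a cells (-0.43 and -0.50), the thymidine kinase TK1 had 932.8 in miR-483 and 1258.1 in miR-551a cells (-0.38), and the helicase subunit MCM6 had 4239.8 in miR-483 and 5611.2 in miR-551a cells (-0.35). The uracil glycosylase UNG lay on the other side, at 0.33.

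Of 33 MYC target and ribosome biogenesis genes, 10 were higher and 23 lower (median -0.13), led by RRP12 with 417.0 in miR-483 and 583.5 in miR-551a cells (-0.49), MRTO4 (-0.37) and PPAN (-0.35), all factors of ribosomal RNA processing or subunit assembly. The probes of MYC itself differed by -0.20 and 0.39 and gave no direction. Of 26 amino acid synthesis and transport genes, 6 were higher and 19 lower (median -0.09), and of 16 aminoacyl-tRNA synthetases, 4 were higher and 12 lower (median -0.07). In contrast, 44 of 77 cytosolic ribosomal protein genes were higher and 31 lower, with a median of 0.01.

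On the higher side the largest difference among brighter probes was that of PAQR8, a membrane progestin receptor, with an intensity of 1297.8 in miR-483 against 739.0 in miR-551a cells, a log2 difference of 0.96 or 1.94-fold. LYZ, the antibacterial enzyme lysozyme, had 733.1 and 413.8 at its 2 probes in miR-483 cells, against 469.5 and 318.6 in miR-551a cells (0.80 and 0.53). SQSTM1, the autophagy receptor p62, had 1524.2 in miR-483 and 985.0 in miR-551a cells (1.69-fold higher). Both LYZ probes were higher, whereas PAQR8 and SQSTM1 were each compared at a single probe.

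NDRG2, a differentiation-associated gene, had 792.4 in miR-483 and 525.1 in miR-551a cells (1.68-fold higher, and 0.42 at another probe). NUPR1, a stress-induced chromatin protein, had 605.2 in miR-483 and 418.9 in miR-551a cells (1.61-fold higher), and a probe listed as P8 had 467.1 in miR-483 and 334.2 in miR-551a cells (1.56-fold higher). P8 is an older symbol of 3 genes in the RefSeq table, NUPR1 among them, so it was kept as listed, and both probes may measure the same gene. ERBB3, the neuregulin receptor, had 1127.8 and 174.5 at its 2 probes in miR-483 cells, against 784.8 and 145.5 in miR-551a cells (0.64 and 0.50). TP53BP2, a p53-binding protein, had 367.9 in miR-483 and 260.8 in miR-551a cells (1.62-fold higher, and 0.28 at another probe), and RUBCNL (listed as C13ORF18), an autophagy regulator, had 826.3 in miR-483 and 565.6 in miR-551a cells (1.60-fold higher, and 0.50 at another probe). The further probes of NDRG2, ERBB3, TP53BP2 and RUBCNL were on the same side, and no further probe was compared under the symbol NUPR1.

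Other leading genes were seen by a single probe or were not shared by their other probes. SNHG10, a small nucleolar RNA host, was 1.64-fold higher (595.5 in miR-483 and 404.7 in miR-551a cells), and FAM13B (listed as C5ORF5) 1.61-fold higher (453.2 in miR-483 and 317.8 in miR-551a cells). RPS29, a ribosomal protein, was 1.69-fold higher at one probe (1173.1 in miR-483 and 758.3 in miR-551a cells), but its 3 brighter probes differed by -0.08, -0.08 and -0.02. PRKCZ, an atypical protein kinase C of cell polarity, was 1.58-fold higher at one probe (412.4 in miR-483 and 293.6 in miR-551a cells) and differed by -0.05 at the other. ZMIZ2 was 1.56-fold higher at one probe (409.1 in miR-483 and 294.2 in miR-551a cells) and differed by 0.16 at the other.

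Among the probes that only the miR-483 array detected, the largest bound belonged to TP53INP1, a p53-induced regulator of autophagy, at 169.5 in miR-483 against 111.9 in miR-551a cells, at least 2.21-fold higher. A further TP53INP1 probe, detected in both arrays, had 225.6 in miR-483 and 176.6 in miR-551a cells (0.57). Further bounds were those of KLHDC9 (at least 1.90-fold higher, and 0.39 at another probe), PCGF5, a Polycomb subunit (1.82), AK9 (listed as C6ORF199, 1.81), the dynein heavy chain DNAH5 (1.79), PATJ (listed as INADL, 1.68, with -0.19 at another probe) and the mismatch repair protein PMS2 (1.65, with -0.14 at another probe). For PATJ and PMS2 a second probe thus lay on the other side of 0. Ratios of the deposited intensities, miR-483 over miR-551a, were smaller than these bounds. They were 1.515 for the TP53INP1 probe, 1.443 for KLHDC9, 1.525 for PCGF5 and 1.604 for AK9. DNAH5 had a ratio of 1.358, PATJ 1.636 and PMS2 1.287.

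Metallothioneins, small proteins that bind zinc and copper, were higher by about the same amount at most members. Of 8 compared, 7 were higher and 1 lower, with a median of 0.26. Past 1.5-fold there were 0, against 1.01% of all genes upward and 1% downward. MT2A had 6151.1 in miR-483 and 5212.1 in miR-551a cells (0.30), MT1E 7590.0 in miR-483 and 6392.5 in miR-551a cells (0.29), and MT1F, MT1G and MT1X differed by 0.30, 0.23 and 0.16, while MT1M had 233.5 in miR-483 and 288.3 in miR-551a cells (-0.35). These genes are close copies of one another, and cross-hybridisation between their probes was not tested.

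Histone genes are numerous close copies whose messengers mostly lack a poly(A) tail. Of 43 listed, 17 were compared, and of the 15 detected in both arrays 9 were higher and 6 lower, with a median of 0.07. Of these 15, 0 passed 1.5-fold, against 0.984% upward and 0.903% downward of all genes detected in both arrays. H2BC21 and H3C10 were detected in the miR-483 array only, at least 1.62-fold and at least 1.54-fold higher, and with them the median was 0.17. H2AC20 had 521.5 in miR-483 and 401.4 in miR-551a cells (0.52), and the damage-responsive variant H2AX differed by -0.38.

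Interferon-induced genes were mostly higher by small amounts, with 21 of 28 higher, 7 lower and a median of 0.14. DDX60, a helicase of antiviral sensing, was detected in the miR-483 array only, at 137.4 against 107.2 in the miR-551a array (at least 1.53-fold higher). PARP12 had 235.4 in miR-483 and 194.5 in miR-551a cells (0.44), and IFI44, PARP9 and IRF9 differed by 0.45, 0.42 and 0.40. In the other direction lay the ubiquitin-like protein ISG15, with 190.1 in miR-483 and 217.2 in miR-551a cells (-0.23), so that not every member shared the direction of the list, and by probe 23 of 36 were higher. The median over the 27 genes detected in both arrays was 0.13 (20 higher, 7 lower), and over the 16 with a brighter probe it was 0.03.

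Immediate early genes, which serum and stress induce within minutes, were higher for 15 of 19 genes, with a median of 0.12. With median scaling and no background correction 12 were higher and 7 lower, with a median of 0.03. EGR1 had 1207.7 in miR-483 and 991.4 in miR-551a cells (0.38), FOS 2413.6 in miR-483 and 1969.9 in miR-551a cells (0.38), and the antiproliferative gene BTG2 227.0 in miR-483 and 183.1 in miR-551a cells (0.50). FOSL1 (-0.49) and ATF3 (-0.40), transcription factors that pair with JUN proteins, lay on the lower side. EGR1 and FOS, also SRF targets, were higher, and TAGLN, ACTG2 and MYL9 were lower. SRF activity was not tested.

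Oxidative stress and aldo-keto reductase genes, many of them targets of NRF2, were higher for 19 of 27 genes, with a median of 0.09. GPX2, the intestinal glutathione peroxidase, had 9240.4 in miR-483 and 7138.9 in miR-551a cells (0.43), AKR1B10 1066.7 in miR-483 and 855.5 in miR-551a cells (0.43), UGDH, a glucuronic acid synthesis enzyme, 3758.6 in miR-483 and 2939.8 in miR-551a cells (0.45), and OSGIN1 differed by 0.54. The sulfiredoxin SRXN1 lay at -0.31, so not every well-known NRF2 target was higher.

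Intestinal identity and stem cell genes were divided. ASCL2, a transcription factor of intestinal stem cells, had 4707.4 in miR-483 and 3229.9 in miR-551a cells (1.54-fold higher), and RNF43, a ubiquitin ligase that removes WNT receptors, had 352.9 in miR-483 and 283.9 in miR-551a cells (0.46). Together with DKK1 on the lower side they belong to a WNT list in which 11 of 19 genes were higher and 8 lower, with a median of 0.01. The intestinal master regulator CDX2 had 866.7 in miR-483 and 665.0 in miR-551a cells (0.49), and the adhesion molecule CEACAM6 had 6198.2 in miR-483 and 8344.1 in miR-551a cells (-0.37), among 12 higher and 7 lower of 20 (median 0.04, and 0.10 over the 18 detected in both arrays).

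The BMP targets ID1 and ID3, inhibitors of basic helix-loop-helix factors, were higher. ID3 had 2507.6 in miR-483 and 1905.0 in miR-551a cells (0.50), and ID1 had 465.7 and 243.8 at its 2 probes in miR-483 cells, against 407.3 and 173.3 in miR-551a cells (0.30 and 0.77). Their list of TGF-beta and BMP targets had 7 of 14 higher and 7 lower (median 0.03). Of 19 mucin and goblet cell genes 11 were higher and 8 lower (median 0.04). The membrane mucin MUC17 had 369.5 in miR-483 and 534.8 in miR-551a cells (-0.54), MUC12 was at least 1.53-fold lower, and the trypsin inhibitor SPINK1 had 144.3 in miR-483 and 119.0 in miR-551a cells (0.59).

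**Figure D3:**
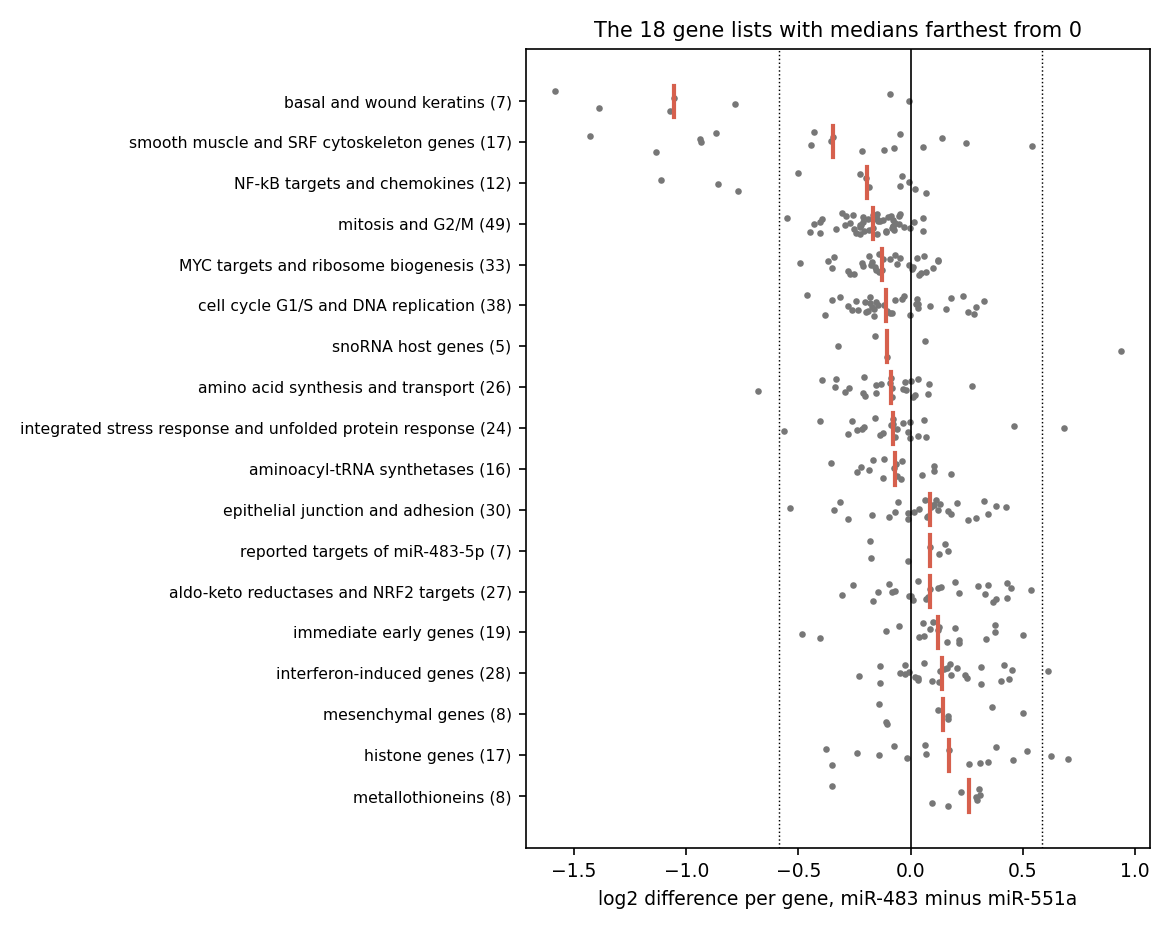
Log2 difference per gene, miR-483 minus miR-551a (x axis), for the 18 gene lists with medians farthest from 0, with the number of genes compared in brackets. Each point is a gene (mean of its probes, bounds included), red bars are list medians and dotted lines mark 1.5-fold; the basal and wound keratins (median -1.06) and the smooth muscle and SRF genes (-0.35) reach farthest left and the metallothioneins (0.26) farthest right.

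The other lists lay close to the 0.00 of all genes. Medians were 0.05 for 48 oxidative phosphorylation subunits (30 higher, 18 lower), 0.03 for 30 proteasome subunits (16 higher, 14 lower), 0.00 for 40 translation factors (20 higher, 20 lower), 0.01 for 20 glycolysis genes (11 higher, 9 lower) and 0.01 for 33 cholesterol and fatty acid synthesis genes (20 higher, 12 lower). Single members were farther away: the glucose transporter SLC2A1 had 375.6 in miR-483 and 544.6 in miR-551a cells (-0.55), and the desaturases SCD and FADS1 differed by 0.40 and -0.46. Hypoxia-induced genes had a median of 0.07 (10 of 16 higher), with CA9 at 0.49 and ERO1A at 0.45. Epithelial junction genes had a median of 0.09 (20 of 30 higher) and the 8 mesenchymal genes compared 0.15 (5 higher, 3 lower).

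The medians of the p53 targets (0.05, 12 of 20 higher), the apoptosis regulators (-0.02, 9 of 23 higher) and the receptor tyrosine kinases (-0.01, 8 of 17 higher) were also small. The p53 median was -0.14 when 9 genes with brighter probes were kept, so its sign depended on that choice. Among apoptosis regulators the probes of PMAIP1, the BH3-only protein NOXA, differed by -0.16 and -0.61. The 16 genes of the microRNA machinery had a median of 0.01 (8 higher, 8 lower). Within it, DROSHA, the nuclear RNase that crops primary microRNAs, had 926.1 in miR-483 and 746.3 in miR-551a cells (0.42), and TNRC6A, a silencing partner of Argonaute, differed by -0.47. Of 5 small nucleolar RNA hosts, 2 were higher and 3 lower (median -0.11), with SNHG3 at 160.0 in miR-483 and 115.2 in miR-551a cells (0.94). The 16 housekeeping genes had a median of 0.05 (11 higher, 5 lower).

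Messengers reported elsewhere as targets of miR-483-5p had no common direction between the miR-483 and miR-551a arrays. Of 9 listed, 7 were compared, 4 higher and 3 lower, with a median of 0.09. The higher ones include CKB (0.17), which is also listed as a miR-551a target. Without the control array these differences do not say whether either microRNA lowered its reported targets. ALCAM, an adhesion molecule, had 2753.9 in miR-483 and 2687.4 in miR-551a cells (0.13), SRF differed by 0.09, the mitochondrial fission protein FIS1 by 0.15 and ARHGDIA by -0.01. MAPK3, the kinase ERK1, had 611.9 and 238.5 at its 2 probes in miR-483 cells, against 658.5 and 287.3 in miR-551a cells (-0.05 and -0.31). The protease inhibitor TIMP2 was detected in the miR-551a array only, with a difference of -0.18 as a bound, and SOCS3 and NOTCH3 were detected in neither array. PTP4A3, a phosphatase reported as a miR-551a target, was detected in the miR-483 array only, at 120.0 against 109.1 in the miR-551a array, with a bound of 0.21.

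Creatine kinases buffer ATP with phosphocreatine, and the brain type CKB has been linked to both microRNAs in metastatic colon cancer cells. CKB had an intensity of 377.2 in miR-483 against 356.9 in miR-551a cells, a log2 difference of 0.17. The mitochondrial creatine kinases CKMT1A and CKMT1B, near-identical copies whose probes may not tell them apart, had 1287.8 and 622.4 in miR-483 cells, against 1280.5 and 751.3 in miR-551a cells (0.08 and -0.22). The creatine synthesis enzyme GAMT differed by -0.36 and 0.15 at its 2 probes and the creatine importer SLC6A8 by -0.32. Among the adenylate kinases AK1 differed by 0.31 and AK3 by 0.20. Of 8 genes 4 were higher and 4 lower, and the median was -0.00. By as much as 1.5-fold there were 0, against 1.01% of all genes upward and 1% downward. This direct comparison does not say whether CKB differs from control cells in either culture.

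Probes of the same gene gave the only repeated measurement in the comparison, within the same culture and array. Over 3095 pairs of probes from 2186 genes, the differences of a pair had the same sign in 55.0% of pairs, with a median gap of 0.191 and a Pearson r of 0.182, a description of pairs that share both arrays. With both probes brighter than the median, 57.3% of 1172 pairs shared the sign and r was 0.312. Of 123 pairs with a probe past 1.5-fold, 85 had the same sign and 4 had both probes past it the same way; among the brighter pairs these numbers were 19, 13 and 2. The 2 brighter pairs were those of CXCL8 and CCN2. The genes whose difference rests on a single compared probe, among them ACTG2, KRT17, KRT6B, MYL9, CCN1 and PAQR8, had no such check. KRT6B had 3 probes on the array and MYL9, KRT16, KRT80 and DKK1 had 2, with 1 compared for each. Their other probes were detected in neither array.

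**Figure D4:**
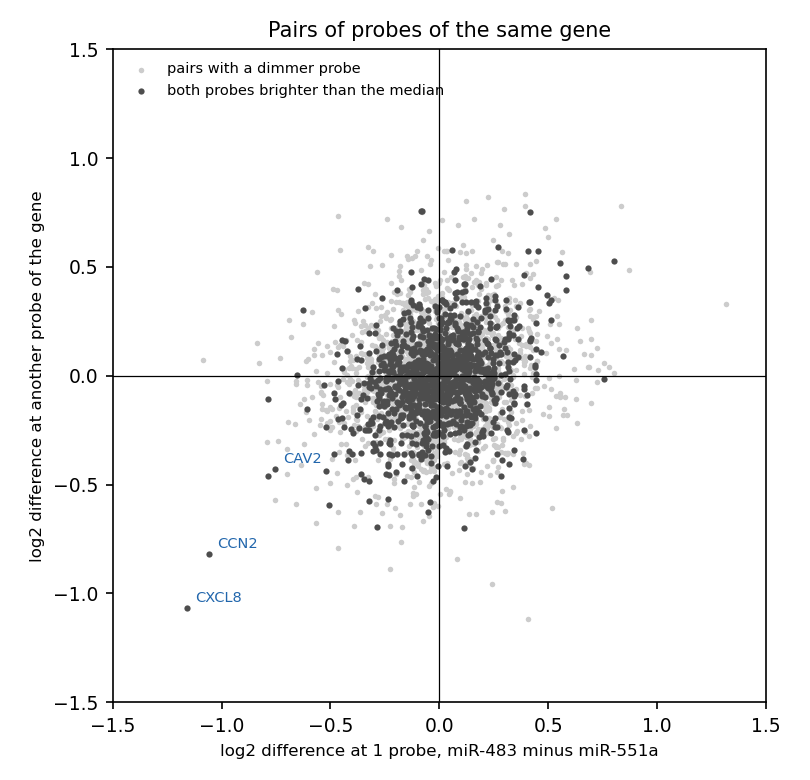
Each point is a pair of probes of the same gene, with the log2 difference, miR-483 minus miR-551a, at one probe on the x axis and at another probe on the y axis; dark points are pairs with both probes brighter than the median. Most pairs form a cloud around 0 with little slope (r of 0.312 in the dark points), and CXCL8, CCN2 and CAV2 lie at the lower left.

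Among the 6875 dimmer probes, 6 (0.0873%) passed 2-fold upward and 8 (0.116%) downward. The lower ones, besides KRT16, KRT80 and MYL9 described above, are named after their values were seen. They were EDN1, the vasoconstrictor endothelin 1 (130.1 in miR-483 and 212.7 in miR-551a cells, -1.12), CTDP1 (130.0 in miR-483 and 211.6 in miR-551a cells, -1.12), ACAD8 (130.8 in miR-483 and 210.5 in miR-551a cells, -1.09), TMEM139 (118.9 in miR-483 and 178.2 in miR-551a cells, -1.02) and a probe of the provisional gene LOC650517, which was detected in the miR-551a array only (116.1 in miR-483 and 245.6 in miR-551a cells) and was at least 3.32-fold lower, the largest difference of the probes compared. The higher ones, besides TP53INP1, included the potassium channel KCNT1 (223.6 in miR-483 and 126.9 in miR-551a cells, 1.39), the zinc finger gene ZNF254 (197.4 in miR-483 and 119.0 in miR-551a cells, 1.32), the muscle enolase ENO3 (202.6 in miR-483 and 132.2 in miR-551a cells, 1.07) and LCN15 (listed as UNQ2541, 215.0 in miR-483 and 142.3 in miR-551a cells, 1.00). These intensities compare with an estimated background mean of 80.6 in the miR-483 and 79.0 in the miR-551a array, and without background correction 0 probes of all those compared passed 2-fold upward and 6 downward.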

How the data were processed

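Ambion miRVANA and MessageAmp kits served for RNA isolation and biotin labelling, per the labels' protocols. The authors deposited non-normalized intensity values of 48803 probes per array with a detection score beside each, a fraction between 0 and 1 per the file headers; it lies near 1 for bright probes. The sources used here name no scanner software or array build. In the deposited normalized intensity table, every miR-483 value is 0.934 times the miR-551a value before normalization, whereas division by the miR-483 value before normalization gives 0.519 to 2.492. That table was used for this check only. The series matrix was not used.

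The 2 arrays went through neqc (R 4.3.3, limma 3.58.1) (background estimated from the detection scores, offset 16, quantile normalization, log2). The background SD was 10.3 in the miR-483 and 9.46 in the miR-551a array. For a probe detected in 1 array, the level in the other was raised to that array's lowest detected one (53.9 in miR-483 and 48.7 in miR-551a on the linear normalized scale) and the fold is a bound. Later steps used Python 3.11.15, pandas 2.3.3 and matplotlib 3.10.9, and were tested on simulated data.

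Differences are miR-483 minus miR-551a on the log2 scale, described at 2-fold and 1.5-fold. Of 10817 symbols compared, 8247 matched a current RefSeq symbol, 1562 an older one and 1008 were kept as listed. Of 41 gene lists, 39 with at least 5 genes compared were described; 6 lists hold cell type markers. The members and lists were chosen with earlier results of these data known. Genes named were the 14 largest differences each way among brighter probes detected in both arrays, 1 probe per gene without provisional symbols, the 8 largest bounds each way, up to 3 leading members of a list and any past 1.5-fold, and all creatine and reported target genes; further list members were named after their values were seen. Some of the genes so chosen are not reported here. Alternatives are given in the closing section.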

Additional observations from a re-analysis of the deposited data

How the results depend on the processing

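No paired analysis was possible because each group has 1 array and no test was made; for the same reason no replicate could be left out. The counts of probes moved most with the background step and with the filter on detection. The 6 probes at least 2-fold higher became 0 without background correction, 1 with an offset of 50, 0 with median scaling without background correction, 32 without the detection filter and 0 among brighter probes. The 15 at least 2-fold lower became 6, 7, 9, 43 and 7 in the same order. At 1.5-fold the 160 higher became 21, 41, 10, 611 and 20, and the 168 lower became 35, 59, 57, 607 and 38. Probes with 2-fold differences in every normalization tried included those of ACTG2 and KRT17, the brighter of TAGLN and both of CXCL8. Of 67 named probes past 1.5-fold, 67 kept their sign in every normalization and 28 stayed past 1.5-fold. The kept signs are no check of these probes. They were chosen with their values in the same arrays known, and a bound cannot turn round by the way it is set. Of 39 list medians 3 were at least 0.2 from 0 (keratins, SRF genes and metallothioneins). All 3 kept their sign in every setting that left at least 5 genes of the list. There 2 stayed past 0.2, while the metallothioneins lay at 0.17 under median scaling without background correction and 0.16 without the detection filter. Over those settings the keratin median ran between -1.08 and -0.53. It was -1.23 over the 4 keratins detected in both arrays, a setting with too few genes for that range. The SRF median ran between -0.36 and -0.21, the NF-kB median between -0.20 and -0.08 and the mitosis median between -0.23 and -0.15. The limits are those of a single array per group: differences between cultures, between labelling reactions and between microRNAs cannot be told apart, and dim probes carry the widest spread.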

Other observations

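Probes named only by a UniGene cluster were left out of the comparison. Of these, 544 were detected in either array, and in miR-483 cells 12 passed 1.5-fold upward, 10 passed it downward and 1 passed 2-fold downward. Of the probes compared, 1.16% passed 1.5-fold upward and 1.22% downward, and 0.109% passed 2-fold downward. Among the dimmer of the probes compared, 2.04% passed 1.5-fold upward and 1.89% downward. The UniGene probe past 2-fold, HS.576444, had an intensity of 151.6 in miR-483 and 251.5 in miR-551a cells, 2.08-fold lower. A far brighter one, HS.579631, had 1961.3 in miR-483 and 3638.7 in miR-551a cells, 1.79-fold lower, and the sources used here give it no gene name.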
